A study of Homo sapiens with 8 samples.

Results

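Aminoacyl-tRNA synthetases are the enzymes that join each amino acid to its transfer RNA, and every protein a cell makes depends on them. The genes described here were chosen by name, as those whose symbol is a 1-letter amino acid code followed by ARS with or without a final 1 or 2, together with EPRS, FARSA, FARSB and TARSL2. This gave 38 genes among the 16040 genes of one table and the 14955 of the other. Those ending in 2 (17 genes) were taken as mitochondrial, TARSL2 was kept apart, and the other 20 were taken as cytosolic or dual. RNA sequencing had been done on 8 libraries of Hep3B, a human hepatocellular carcinoma cell line, with 2 libraries in each of 4 groups. These were Hep3B without an edit, Hep3B SOX4-/- cells (labelled SOX4 knockout, from lines edited with CRISPR/Cas9), Hep3B with a control siRNA, and Hep3B with a siRNA to STAT6. The labels give 1 serum-containing medium for all groups. Puromycin is a selection drug that mimics the end of a charged transfer RNA and can stop protein synthesis. The study's methods add it at 4 ng/ml to the medium of the SOX4-/- cells and name it for no other group. Whether protein synthesis was slowed at this dose was not tested. Drug and genotype therefore cannot be told apart in the knockout comparison. The knockout and Hep3B libraries were deposited in one table and the siRNA libraries in another.

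Human cells keep a pair of largely separate synthetase sets. The cytosolic enzymes charge the transfer RNAs that feed cytosolic ribosomes, and the mitochondrial enzymes, also encoded in the nucleus, charge those of the mitochondrial ribosome. KARS (lysine) and GARS (glycine) each serve both compartments from 1 gene. Several cytosolic enzymes sit in a multisynthetase complex held together by the scaffold proteins AIMP1, AIMP2 and EEF1E1. Many cytosolic synthetase genes are known targets of ATF4, the transcription factor of the amino acid response, which binds C/EBP-ATF response elements together with C/EBP family proteins.

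The values were expected counts, that is, read counts estimated per transcript, summed here per gene. Totals ranged from 16266282 to 25353113 expected counts per library. Levels are given as CPM, counts normalized to the library's depth and to the TMM factor of its table. As each table was scaled on its own, levels set side by side across the tables are a description only. All 38 genes passed the filter on low counts in both tables. The labels do not say that libraries of 1 group came from separate cultures, nor that knockout libraries 1 and 2 are different lines, so the p-values measure the spread between these libraries only. In the siRNA table the libraries numbered 2 stood apart from those numbered 1. Over the 38 synthetase genes the log2 CPM of library 2 minus that of library 1 fell with the GC content of the transcripts, with a Spearman correlation across genes of -0.86 in the control siRNA pair and -0.92 in the STAT6 siRNA pair. The same correlation was -0.06 in Hep3B and 0.32 in the knockout, and over all genes it was -0.75, -0.82, -0.09 and 0.29 in that order of groups. Genes of 1 library share its depth and base composition, so these are descriptions without a test.

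**Figure D1:**
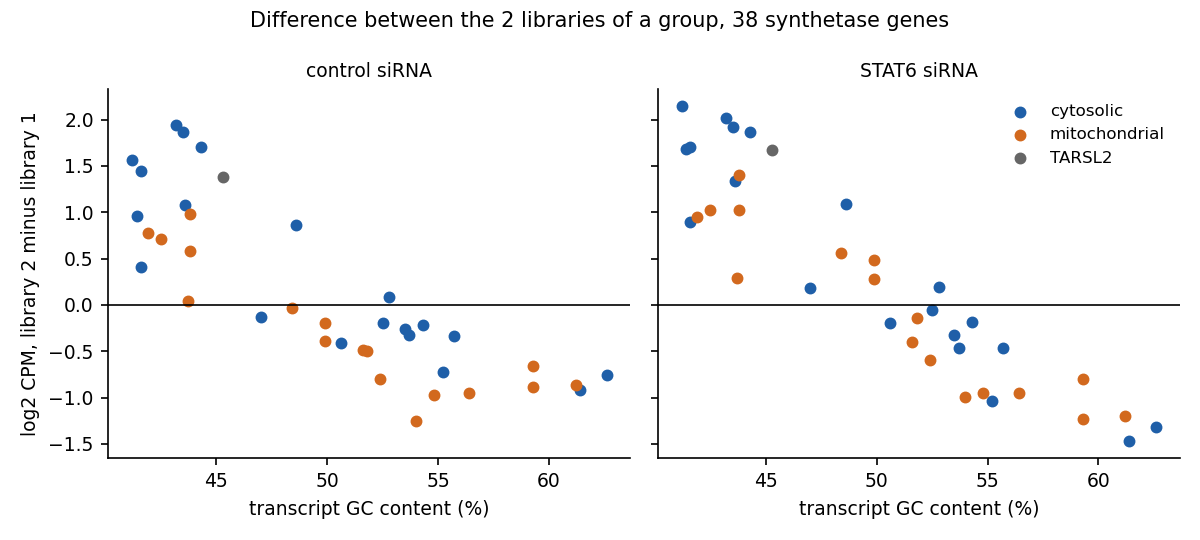
Difference in log2 CPM between library 2 and library 1 of the control siRNA group (left) and the STAT6 siRNA group (right) against transcript GC content in percent, 1 point per synthetase gene. Genes of low GC content lie above 0 and genes of high GC content below it in both groups, for both classes of enzyme.

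The targeted genes were read first. SOX4 had 799 and 266 CPM in Hep3B and 298 and 302 CPM in the libraries labelled SOX4 knockout. These ranges overlapped, so the SOX4 transcript level gave no check of that label. STAT6 had 42.5 and 31.4 CPM with control siRNA and 9.92 and 5.98 CPM with STAT6 siRNA, both below both controls (log2 fold change -2.22, SE 0.72, adjusted p = 1 by edgeR's quasi-likelihood test over all genes). STAT6 was also lower in the knockout, at 2.76 and 2.2 CPM against 32 and 13.2 CPM in Hep3B (log2 fold change -3.18, SE 0.57, adjusted p = 0.0275 by edgeR).

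Per kilobase of transcript, the median over cytosolic synthetase genes lay above that over mitochondrial ones in every group, while single genes of the classes overlapped. In Hep3B the median level was 73.8 CPM per kb over the 20 cytosolic or dual genes (range 11.5 to 427) and 9.84 over the 17 mitochondrial genes (range 2.98 to 31.8). In the knockout these medians were 37.4 and 9.97 CPM per kb, with control siRNA 46.3 and 14.1, and with STAT6 siRNA 46.2 and 13.7. The classes were close in transcript length, with medians of 2926 and 2572 bases, and in GC content, with medians of 49.6% and 51.6%. They lay on 13 and 10 chromosomes. GARS, the glycyl-tRNA synthetase, headed the order in Hep3B at 427 ± 84.9 CPM per kb (SD, n = 2). It was followed by SARS, which charges serine (189 ± 70), AARS, which charges alanine (148 ± 15.4), and TARS, which charges threonine (132 ± 38.9), and these followers did not differ from their neighbours beyond their spread. FARSB, a subunit of the phenylalanyl enzyme, was lowest of the cytosolic genes at 11.5 ± 2.19 CPM per kb. Its partner subunit FARSA stood at 71.6 ± 8.22 CPM per kb in the same libraries. At the low end of the mitochondrial genes were LARS2, which charges leucine, at 2.98 ± 1.12 CPM per kb and PARS2, which charges proline, at 3.7 ± 1.64, again within their spread. IARS2, the mitochondrial isoleucyl enzyme, was highest of that class at 31.8 ± 9.66 CPM per kb.

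Promoters of the synthetase genes were read for the core of the C/EBP-ATF response element, TGATGNAA, on both strands, because many cytosolic members were lower together in the knockout, as given further on. RefSeq promoter sequences (GRCh38.p14, 300 bases, from 250 before to 50 after the start) matched 30 of the 38 genes. Of the cytosolic genes, DARS, LARS, VARS and YARS had no entry. The 8-letter core was in a promoter of 7 of 16 cytosolic genes (43.8%) and of 1 of 14 mitochondrial genes (7.1%), against 1217 of 27305 genes of all kinds with a promoter (4.5%). The 7 were AARS, CARS, GARS, IARS, MARS, NARS and TARS, and the mitochondrial gene was YARS2. These 8 matches are printed 5′ to 3′ on the strand of the gene, with the core in capitals. In 6 of the 7 cytosolic promoters the core was read on the opposite strand.
AARS, chr16:70289675-70289704, minus strand: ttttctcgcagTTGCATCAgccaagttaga
CARS, chr11:3057407-3057436, minus strand: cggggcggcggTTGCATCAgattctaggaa
GARS, chr7:30594834-30594863, plus strand: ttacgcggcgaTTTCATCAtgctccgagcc
IARS, chr9:92293692-92293721, minus strand: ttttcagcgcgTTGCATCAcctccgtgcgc
MARS, chr12:57488053-57488082, plus strand: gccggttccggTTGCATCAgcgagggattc
NARS, chr18:57621804-57621833, minus strand: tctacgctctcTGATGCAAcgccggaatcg
TARS, chr5:33440956-33440985, plus strand: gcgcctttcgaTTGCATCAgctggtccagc
YARS2, chr12:32756076-32756105, minus strand: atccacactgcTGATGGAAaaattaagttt
The first capital lay at position -187 from the start in AARS, -33 in GARS, -13 in IARS, -4 in MARS, -2 in CARS, 3 in TARS, 15 in NARS and -197 in YARS2, counted without a 0. The 8 bases were identical in AARS, CARS, IARS, MARS and TARS, and NARS carried their reverse complement. A match is a string of letters and was not shown to be a bound site.

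In the knockout most cytosolic synthetase genes lay below their level in Hep3B, and the mitochondrial genes as a class did not. The question put by this comparison is what loss of SOX4, a transcription factor of the SOX family, does to expression in these liver cancer cells. Of the 20 cytosolic or dual genes, 18 had a log2 fold change below 0, with a median of -0.95 and a range of -1.87 to 0.65 (SE 0.32 to 0.47). Of the 17 mitochondrial genes, 6 were below 0 and 11 above, with a median of 0.06 (SE 0.34 to 0.51). The median over all 14415 genes tested was 0.01. These are counts and medians of a list, to which no test was applied.

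**Figure D2:**
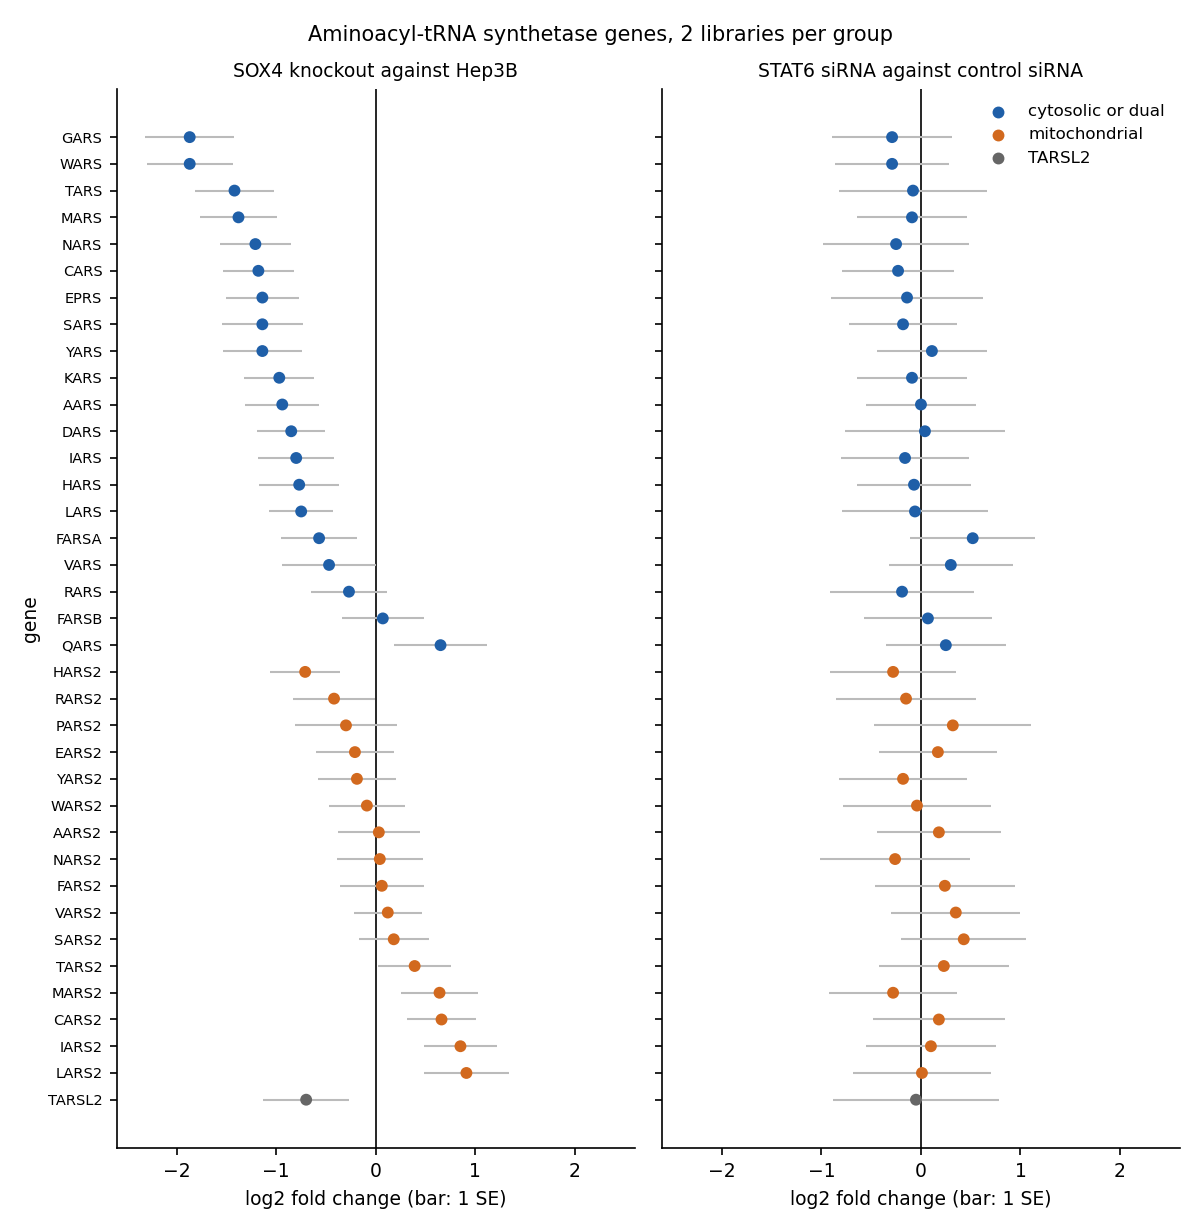
Fitted log2 fold change of 37 synthetase genes (points, with bars of 1 SE) in the knockout against Hep3B (left) and with STAT6 siRNA against control siRNA (right), 2 libraries per group. On the left 18 of 20 cytosolic genes lie below 0 and 10 of the 16 mitochondrial genes plotted above it, while on the right the points of both classes lie between -0.29 and 0.52.

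By the test across all genes, 1 of the 20 cytosolic genes fell, where 1.39% of all genes tested were called lower and 4.5% higher. That gene was WARS, the tryptophanyl-tRNA synthetase, at chromosome 14, 100333788 to 100376344 on hg38. WARS had 214 and 279 CPM in Hep3B and 46.6 and 88.8 CPM in the knockout. The knockout libraries lay well below both Hep3B libraries (log2 fold change -1.87, SE 0.43, adjusted p = 0.0475 by edgeR). The call was near the threshold, as its adjusted p ranged from 0.00141 to 0.0629 over other settings and reached 0.317 when a knockout library was left out. With either knockout library left out no synthetase gene was called, without Hep3B library 1 there were 3 and without Hep3B library 2 there were 5. The same comparison in DESeq2 called 7 synthetase genes, all cytosolic and all lower, namely CARS, EPRS, GARS, MARS, NARS, TARS and WARS. GARS had the highest count of the class in Hep3B and missed the main threshold. Its level was 1280 and 967 CPM in Hep3B against 246 and 370 CPM in the knockout (log2 fold change -1.87, SE 0.45, adjusted p = 0.0534 by edgeR). TARS had 521 and 341 CPM in Hep3B and 142 and 181 CPM in the knockout (log2 fold change -1.42, SE 0.4, adjusted p = 0.0802 by edgeR). In all 3 genes each knockout library was below each Hep3B library.

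Unadjusted, 12 of the 20 cytosolic genes had a p below 0.05 and a lower level, against 10.5% of all genes tested. In 16 of the 20 both knockout libraries lay below both Hep3B libraries, against 27.4% of all genes, and these included MARS, the methionyl enzyme, with 362 and 266 CPM against 96 and 146 CPM in the knockout (log2 fold change -1.38, SE 0.39), and NARS, the asparaginyl enzyme, with 365 and 302 CPM against 154 and 134 (log2 fold change -1.21, SE 0.36). The others were AARS, CARS, DARS, EPRS, FARSA, GARS, HARS, IARS, KARS, LARS, SARS, TARS, WARS and YARS. The groups overlapped in FARSB, RARS, which charges arginine, and VARS, which charges valine. QARS, the glutaminyl enzyme, named here after its values were seen, was the only cytosolic gene with both knockout libraries above both Hep3B libraries. Its knockout level of 103 and 106 CPM stood against 96.3 and 36.9 CPM in Hep3B, so its fold change (0.65, SE 0.47, adjusted p = 0.419 by edgeR) rested mostly on Hep3B library 2, and without that library it was 0.11.

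**Figure D3:**
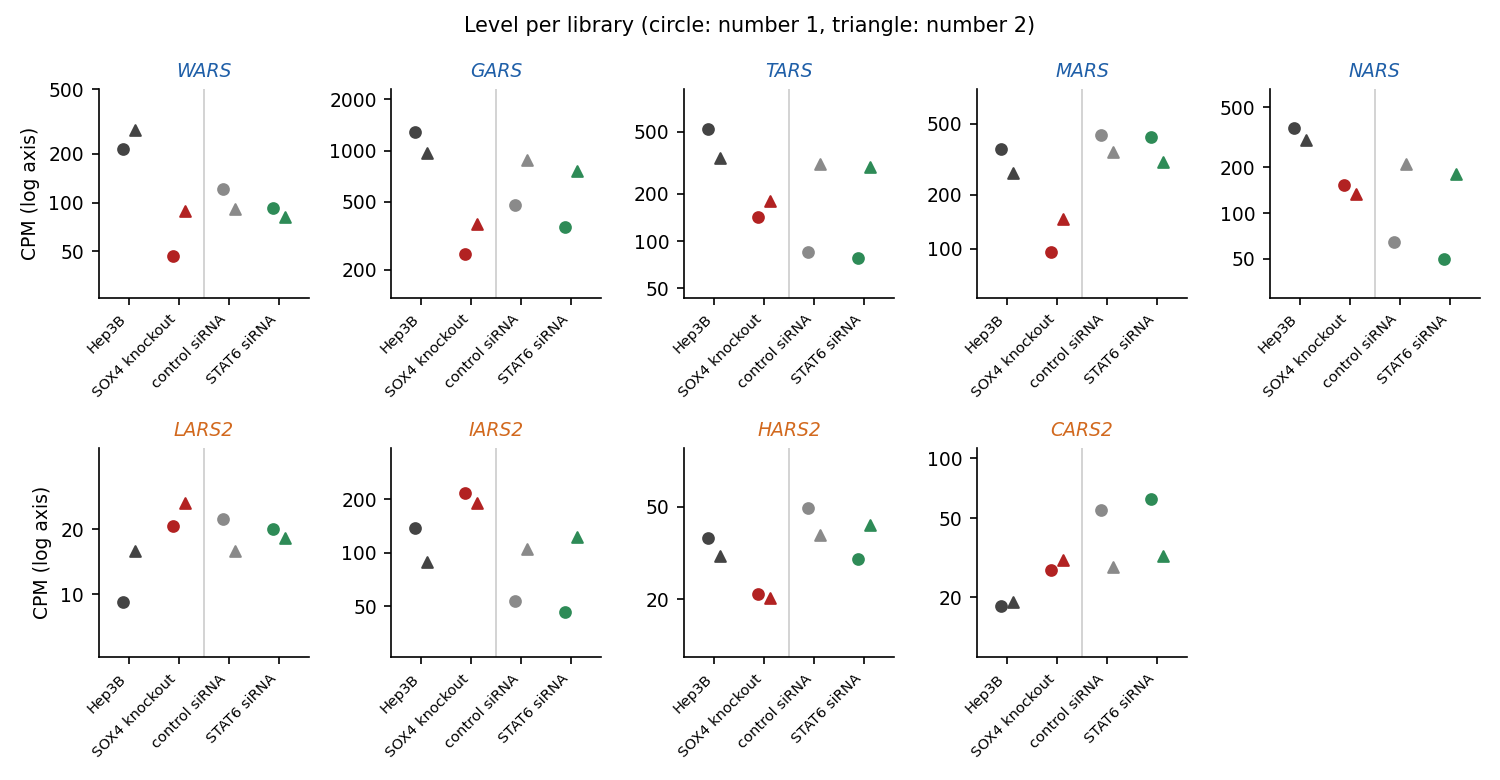
CPM on a log axis in each of the 8 libraries for 5 cytosolic genes (blue titles) and 4 mitochondrial genes (orange titles) among those with the greatest absolute fold change in the knockout comparison; circles are libraries numbered 1 and triangles libraries numbered 2, and the grey line parts the tables. In the 5 cytosolic genes the knockout points lie below both Hep3B points, and of the mitochondrial genes this holds for HARS2 while the other 3 lie above.

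The lower levels were spread over the roles within the class. Of the 8 members of the multisynthetase complex 7 were below 0 with a median log2 fold change of -0.83, and of the 12 cytosolic genes outside it 11 were below 0 with a median of -1.14. QARS was the complex member above 0. Split by the fold of the catalytic domain, 8 of 9 class I genes were below 0 (median -0.8) and 9 of 10 class II genes (median -0.95), with EPRS, which carries an enzyme of each class for glutamate and proline, counted in neither. EPRS itself had 373 and 459 CPM in Hep3B and 209 and 169 CPM in the knockout (log2 fold change -1.14, SE 0.37, adjusted p = 0.11 by edgeR). Without the dual genes KARS and GARS the median over the other 18 was -0.9. Of the 13 cytosolic genes with a promoter entry and with both knockout libraries below both Hep3B libraries, 7 carried the core printed above (53.8%), and of the other 3 none did, which is too few to compare. WARS, the one called, had no match in its promoter entries.

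Among mitochondrial genes none was called at an adjusted p below 0.05. Of the 17 genes 1 had an unadjusted p below 0.05 with a higher level, against 15.6% of all genes tested. Both knockout libraries lay above both Hep3B libraries in 6 of the 17, a share near the 30.6% of all genes and so no result about these genes. LARS2 had 9.19 and 15.9 CPM in Hep3B and 20.7 and 26.4 CPM in the knockout (log2 fold change 0.91, SE 0.43). IARS2 had 138 and 89 CPM in Hep3B and 216 and 192 CPM in the knockout (log2 fold change 0.85, SE 0.37). HARS2, the mitochondrial histidyl enzyme, was the 1 gene of the class with both knockout libraries lower, at 21 and 20.3 CPM against 36.8 and 30.6 CPM (log2 fold change -0.71, SE 0.35, adjusted p = 0.247 by edgeR). HARS2 and HARS are divergent neighbours on chromosome 5 that share 402 exon bases on opposite strands in the GENCODE 29 annotation. Whether strand was used in counting is not given in the sources used here, so reads of that stretch cannot be assigned to 1 of them. In all, 15 of the 38 genes shared exon bases with a gene on the opposite strand, among them GARS (99 bases, with GARS-DT), WARS (272 bases, with WDR25) and MARS (62 bases, with DDIT3). SARS2 also shared 1492 exon bases with AC011455.2 on the same strand, where strand cannot part the reads. TARSL2, a gene closely related to TARS, had 26.9 and 16 CPM in Hep3B and 15.3 and 11.1 CPM in the knockout (log2 fold change -0.7, SE 0.43, adjusted p = 0.347 by edgeR), and reads alike in both genes may have been shared between them.

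The classes were then compared within each library, which needs no scaling between libraries. Summed over its genes the cytosolic class had 5874 and 5161 CPM in Hep3B and 2208 and 2877 CPM in the knockout. The mitochondrial class had 577.2 and 552 CPM in Hep3B and 667.4 and 764.1 CPM in the knockout. The cytosolic sum was thus 10.2 and 9.35 times the mitochondrial sum in Hep3B and 3.31 and 3.77 times in the knockout. On the log2 scale the ratio was 3.29 ± 0.09 in Hep3B and 1.82 ± 0.13 in the knockout (SD, n = 2), a difference of -1.47. Each SD rests on 2 libraries that are not known to be separate cultures. An exact two-sided permutation test gave p = 0.333, the smallest that 2 libraries against 2 allow. GARS made up 21.8% and 18.7% of the cytosolic sum in Hep3B and 11.1% and 12.9% in the knockout, and without GARS the difference was -1.32. In bulk RNA, fewer cells of a type and less RNA per cell cannot be told apart.

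**Figure D4:**
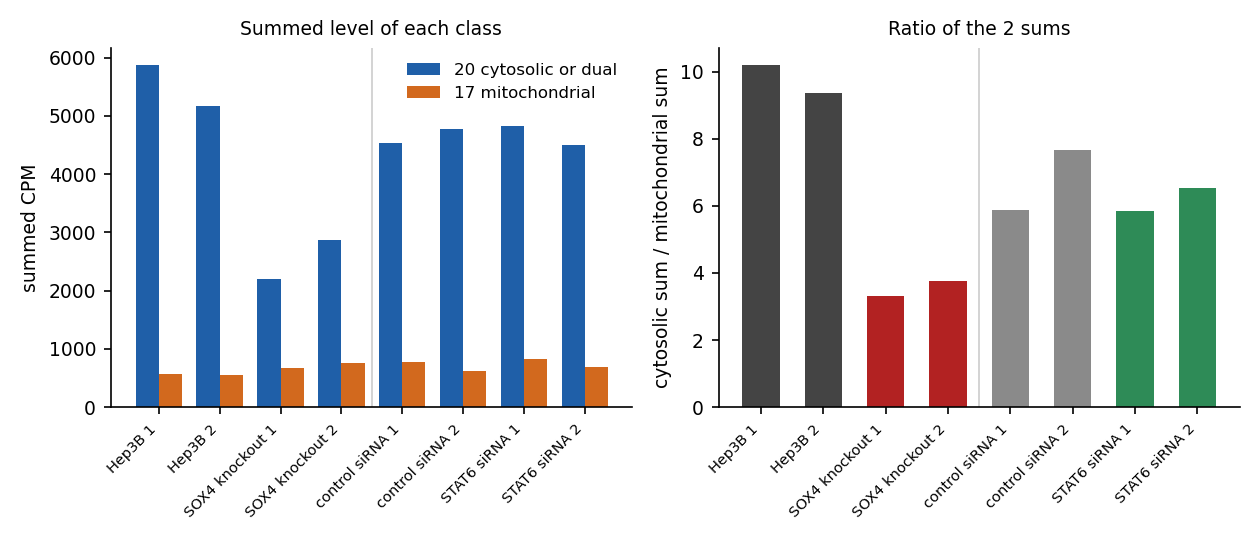
Summed CPM of the 20 cytosolic or dual and the 17 mitochondrial synthetase genes in each library (left) and the ratio of the sums (right); the grey line parts the tables, which were scaled separately. The ratio is 10.2 and 9.35 in Hep3B, 3.31 and 3.77 in the knockout, and between 5.86 and 7.67 in the siRNA libraries.

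Amino acid by amino acid, 16 pairs of a cytosolic and a mitochondrial gene were formed. The pairing held a choice for enzymes of more than 1 subunit or amino acid. FARS2 was set against FARSA and not FARSB, in which the knockout and Hep3B groups overlapped. EPRS was set against EARS2 only, so PARS2 was in no pair. The ratio of the cytosolic to the mitochondrial count was lower in both knockout libraries than in both Hep3B libraries in 14 of the 16 pairs. No share over pairs of other genes was worked out in either comparison, so such counts of pairs are a description only. The mean log2 difference ranged from -2.08 to 0.14 with a median of -1.28. For methionine, MARS had 9.06 and 11.3 times the count of MARS2 in Hep3B and 2.03 and 2.84 times in the knockout, the widest gap of all pairs. For isoleucine, IARS had 1.94 and 3.58 times the count of IARS2 in Hep3B and 0.63 and 1.04 times in the knockout, so that in knockout library 1 the mitochondrial gene had the higher count. The histidine pair overlapped between groups, at 1.73 and 3.26 times in Hep3B and 1.81 and 2.87 times in the knockout. Arginine was the 1 pair with a higher ratio in both knockout libraries, at 1.65 and 1.61 times against 1.54 and 1.42 times. These ratios are not corrected for length, which cancels in the differences between groups as long as the transcripts used stay the same.

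**Figure D5:**
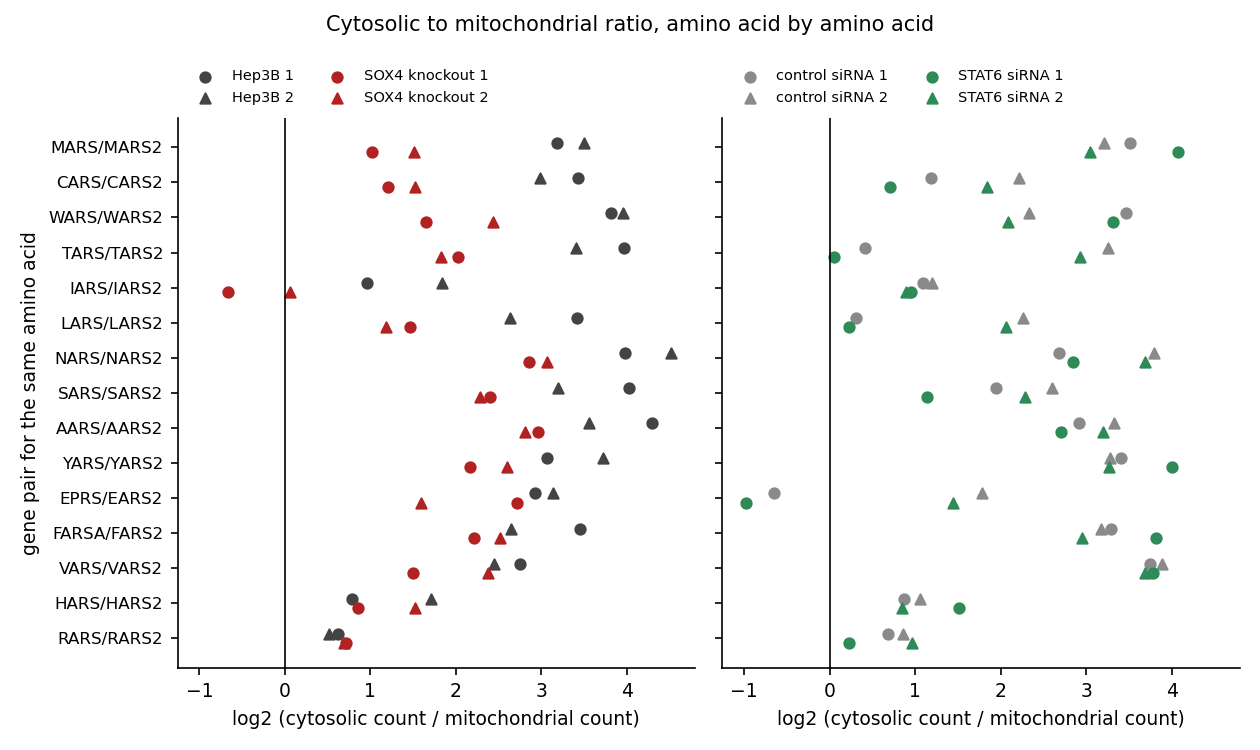
Log2 ratio of the cytosolic to the mitochondrial count for 15 amino acid pairs in Hep3B and knockout libraries (left) and in control and STAT6 siRNA libraries (right), each point 1 library. On the left the knockout points lie to the left of the Hep3B points in 13 of the 15 pairs; on the right this holds for the STAT6 siRNA points of 1 pair, IARS/IARS2.

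Transcript shares were read in genes with more than 1 listed transcript. Of the listed GARS transcripts, NM_002047 made up 86.1% and 85% of the gene's count in Hep3B and 74.5% and 75.8% in the knockout. The other one, NM_001316772, went from 178 and 145 CPM to 62.5 and 89.7 CPM. With control siRNA the share of NM_002047 was 77.8% and 78%, and with STAT6 siRNA 72.9% and 76.9%. The leading WARS transcript, NM_173701, had 102 and 133 CPM in Hep3B and 29.8 and 46.2 CPM in the knockout, and the next, NM_004184, had 79.7 and 99.9 CPM and 9.02 and 26 CPM. For KARS, whose transcripts encode a cytosolic and a mitochondrial form, both were lower in the knockout. The transcript of the cytosolic form, NM_005548, had 124 and 120 CPM in Hep3B and 60.9 and 83.9 CPM in the knockout, and that of the mitochondrial form, NM_001130089, had 39.8 and 77.8 CPM and 18.2 and 21.7 CPM. Shares of transcripts come from the estimate that made the expected counts, and no test was run on them.

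With STAT6 siRNA no synthetase gene was called. The comparison asks what a lower level of STAT6, a signal transducer and transcription factor, does in the same cell line. The median log2 fold change was -0.09 over the cytosolic genes, with 13 of 20 below 0, and 0.1 over the mitochondrial genes, with 7 of 17 below 0. Of all 13554 genes tested 0% were called by edgeR and 0.103% had an unadjusted p below 0.05, and DESeq2 also called none. Among the 38 synthetase genes none had an unadjusted p below 0.05 in edgeR or in DESeq2. Standard errors were 0.54 to 0.83, wider than in the knockout table. Both STAT6 siRNA libraries lay below both controls in CARS, SARS and MARS2, 3 of 38 against 5.26% of all genes, and above both in none against 2.74% of all genes. CARS, the cysteinyl enzyme, had 125 and 132 CPM with control siRNA and 102 and 116 CPM with STAT6 siRNA (log2 fold change -0.23, SE 0.56). WARS had 121 and 91 CPM with control siRNA and 92.4 and 81.2 CPM with STAT6 siRNA (log2 fold change -0.29, SE 0.57). GARS had 481 and 876 CPM and 355 and 755 CPM in the same order, so that library number parted its values more than treatment did. FARSA had the largest absolute value of the cytosolic genes, at 240 and 127 CPM with control siRNA and 387 and 140 CPM with STAT6 siRNA (log2 fold change 0.52, SE 0.63), and SARS2, the mitochondrial seryl enzyme, that of its class, at 102 and 56.4 CPM and 149 and 64.9 CPM (log2 fold change 0.43, SE 0.63). Between libraries of the same number the log2 difference (STAT6 siRNA minus control) had 1 sign in each of these genes, at -0.44 and -0.21 for GARS, 0.69 and 0.14 for FARSA and 0.55 and 0.2 for SARS2. The fitted directions changed when 1 library was left out, which leaves 1 group with a single number.

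The ratio of the summed classes was 5.88 and 7.67 with control siRNA and 5.86 and 6.54 with STAT6 siRNA. On the log2 scale this was 2.75 ± 0.27 and 2.63 ± 0.11 (SD, n = 2), and the difference of -0.12 lay within the spread (exact two-sided permutation p = 0.667, where 0.333 is the smallest possible). The ratio in both control siRNA libraries was below that in both Hep3B libraries and above that in both knockout libraries. Summed cytosolic levels were 4539 and 4776 CPM with control siRNA and 4831 and 4497 CPM with STAT6 siRNA. Mitochondrial sums were 771.5 and 622.4 CPM and 825.2 and 687.9 CPM. Of the 16 pairs, 11 had a mean log2 ratio below the control's, with a median difference of -0.15, and 1 (IARS/IARS2) was lower in both libraries.

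The knockout effect and the siRNA effect on each gene were compared directly, as a contrast between the pairs of groups in a fit of all 8 libraries. For none of the 38 genes did the effects differ at an adjusted p below 0.05, against 0.0769% of all 14313 genes. The difference (knockout effect minus siRNA effect) was below 0 in 19 of 20 cytosolic genes, with a median of -1.05, and in 10 of 17 mitochondrial genes, with a median of -0.15. The median over all genes was -0.09. Unadjusted, the p was below 0.05 for WARS (difference -1.69) and GARS (difference -1.67) and for no other synthetase gene, and the lowest adjusted p was 0.669 by edgeR. The number of synthetase genes with such an unadjusted p was 2 here, 13 with library number as a block, 9 with GC and length offsets, 17 with both, and 0 to 5 with a library left out, while none was called in any of these fits. The count of cytosolic genes below 0 went from 19 to 13 without STAT6 siRNA library 2. The knockout fall in WARS is thus not shown to differ from its change under STAT6 siRNA.

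Partners of the synthetases were measured from a list of 14 genes. It holds the complex scaffolds, enzymes that remove mischarged amino acids or convert the amino acid on a charged transfer RNA, and TRNT1, which adds the CCA end. It also holds PRORSD1P, a pseudogene, listed for PRORSD1. In the knockout none of the 14 was called and none had an unadjusted p below 0.05, 8 were below 0 and the median log2 fold change was -0.17. The scaffolds AIMP1 (25.9 and 42.1 CPM in Hep3B, 39.7 and 31.6 in the knockout), AIMP2 (66.6 and 87.1, then 48.4 and 84.7) and EEF1E1 (67.6 and 40.6, then 41.1 and 41.2) overlapped between groups, with a median of -0.21. Both knockout libraries lay below both Hep3B libraries in DTD1, QRSL1 and GATC and above them in DTD2, MTFMT and PRORSD1P, 3 of 14 each way against 27.4% and 30.6% of all genes. PRORSD1P was near the floor, with 10 and 11 counts in Hep3B and 49 and 11 in the knockout. In knockout library 2 it had 0.605 CPM against 0.568 and 0.58 CPM in Hep3B. DTD1, which removes D-amino acids from transfer RNA, had 33.3 and 52.5 CPM in Hep3B and 20.3 and 26.9 CPM in the knockout (log2 fold change -0.86, SE 0.39, adjusted p = 0.214 by edgeR). With STAT6 siRNA none of the 14 was called and their median was -0.13.

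Several cell type markers moved with the knockout as well. All 10 hepatocyte genes of the marker list were at or above 1 CPM in every library. Their summed level was 18100 and 12900 CPM in Hep3B, 55600 and 33300 CPM in the knockout and 17600 to 22700 CPM in the siRNA libraries. ALB alone had 7460 and 6820 CPM in Hep3B and 28400 and 13600 CPM in the knockout. AFP overlapped between these groups, at 149 and 30.6 CPM and 75.2 and 30.9 CPM. In each other hepatocyte gene both knockout libraries lay above both Hep3B libraries, against 30.6% of all genes. Of the 4 fibroblast genes, LUM had 0.624 and 0.738 CPM in Hep3B and 85.5 and 54.2 CPM in the knockout, COL1A1 reached at most 9.35 CPM, and the summed level went from 1.59 and 6.17 CPM to 91.3 and 63.6 CPM. Of the 4 leukocyte genes, CD68 and LYZ made up nearly all of the summed level, which was 89.5 and 34.3 CPM in Hep3B and 186 and 436 CPM in the knockout, while PTPRC, the defining one, had at most 6 counts. The endothelial list reached at most 0.77 CPM. COL1A2 (in the knockout table), DCN, VWF, CDH5 and CD3E were not analysed here. What part these levels have in the synthetase results was not tested.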

How the data were processed

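The authors deposited expected counts per RefSeq transcript, not normalized, in 2 tables of 4 libraries each. Poly(A) libraries were stranded. The submitters' processing notes name STAR, Partek and hg38, and the quantifier, its version, the annotation release and the strand setting are not given in the sources used here. The smallest sum of a listed transcript over 4 libraries was 10. Per table, 19 gene names had become dates and were parted by chromosome.

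Expected counts were summed per gene and rounded. The quasi-likelihood test of edgeR 4.0.16 (R 4.3.3) was run on each table alone, after filterByExpr and TMM scaling, with Benjamini-Hochberg adjustment over all genes and a threshold of 0.05. The difference contrast used genes listed in both tables. Precision is limited by 2 libraries per group and depths of 16266282 to 25353113. Lengths and GC content came from GENCODE 29 transcripts, shared exon bases from its basic annotation, and promoters from RefSeq.

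Samples were grouped by their GEO labels. The genes and lists were chosen with earlier results of these data known. Genes named by rule were those called, up to 5 per class among those with the largest absolute fold change, and the targeted genes. QARS was named after its values were seen. Values are also given for genes outside that rule, as examples or as ends of a range. Among them are EPRS, CARS, TARSL2, FARSB, PARS2, the KARS transcripts, marker genes and partners that were not called. Values of 1 mitochondrial gene are not reported here, though its row stayed in the fits and counts. The steps were tested on simulated data. A simulated log2 change of -1 was called in 0 of 50 genes in either table. At -2 the calls were 14 of 50 in the knockout table and 3 of 50 in the siRNA table, and at -3 they were 44 and 26. A gene that was not called is thus not shown to be unchanged. Alternatives were other scaling factors, DESeq2 1.42.0, other filters and fit settings, GC and length offsets, a block for library number, a fit of all libraries and leaving out each library. The fit with legacy = FALSE and the ratio without GARS were added after seeing the data.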

Additional observations from a re-analysis of the deposited data

How the results depend on the processing

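With 2 libraries per group the calls sat near the threshold. In the knockout 1 synthetase gene was called as fitted, 2 with median-of-ratios factors, upper-quartile factors or robust fitting, 7 with DESeq2, and 0 without a filter, with at least 10 counts in every library, in the fit of all 8 libraries, or with GC and length offsets and the block together. Leaving out a library gave 0 to 5, where the lone library left is assumed to vary like the other group. The cause was not tested. Over all genes the knockout calls were 849 as fitted, 2160 in DESeq2, 64 with offsets and block, 438 in the fit of all 8 libraries, and 21 to 2298 with a library left out, and those of the difference contrast 11 as fitted and 0 to 167 otherwise. Direction was steadier: in every setting run, 17 to 19 of 20 cytosolic and 5 to 10 of 17 mitochondrial genes were below 0 in the knockout. The cytosolic median there was -1.15 to -0.8 with a library left out. The mitochondrial median was -0.14 with GC and length offsets, which moved the median of all genes to -0.12, -0.11 with offsets and block, and -0.04 to 0.24 with a library left out. The log2 change of the class ratio in the knockout was -1.32 without GARS and -1.56 to -1.37 with a library left out. With STAT6 siRNA the cytosolic median was -0.27 to 0.06 and the ratio change -0.31 to 0.07 with a library left out, and GARS (-0.94 to 0.21), FARSA (-0.39 to 1.13) and SARS2 (-0.29 to 1) changed direction. No synthetase gene was called there, or in the difference contrast, under any alternative. The labels do not say that a library number marks a shared culture or day, and the correlation of deviations of same-numbered libraries was -0.08 among Hep3B and knockout libraries and 0.87 among siRNA libraries. With a block for the number 1 synthetase gene was called in the knockout and 0 with STAT6 siRNA, while all calls there went from 0 to 62, and to 328 with the offsets too.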
